A study of Mus musculus with 2 samples.

Results

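T cells and natural killer (NK) cells are the lymphocytes of fat that recognise antigen through a T cell receptor or kill through germline-encoded receptors. They were described here by 35 listed genes for the receptor complex, its signalling, costimulation, cytotoxic granules and lineage factors, of which 33 were measured among 19938 genes named on the array. Lck, the kinase that starts T cell receptor signalling, and Tcf7, a factor of naive and memory T cells, had 0 probe sets under their symbols or gene identifiers in the annotation used. They have no reading here, and only their promoter windows were counted. Each of the 33 had 1 probe set. The members were listed by gene function, and the rule that lists them uses no measured value, although earlier results of these data were known when the list was made.

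The study compared white adipose tissue of 24-week-old mice kept on a high-fat diet for 20 weeks. One array was labelled Oma1_KO, for a mouse deficient in Oma1, a gene for a mitochondrial protease of the inner membrane. The other was labelled Oma1_WT, for the control mouse. Both groups shared the diet, tissue and age. The labels state neither strain, sex, fat depot, the kind of Oma1 allele, nor how many mice gave RNA to each array. With 1 array per group no difference below has a replicate check and no p-value is given. The deposited intensities are whole numbers with a median of 83 on both arrays. Adipocyte genes were bright on both, Adipoq, which encodes adiponectin, with 5255 in Oma1_KO and 6832 in Oma1_WT, and Plin1, a lipid droplet coat protein, with 5923 in Oma1_KO and 6387 in Oma1_WT. Oma1 itself read 155 in Oma1_KO and 187 in Oma1_WT, a log2 difference of -0.27. Where its probe set lies relative to the disrupted part of the gene is not given in the sources used here, so that value does not check the genotype.

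The T cell receptor reaches the cell interior through the CD3 chains, whose phosphorylated tails recruit the kinase Zap70, which in turn phosphorylates the adaptor Lat. CD4 and CD8 coreceptors mark helper and killer cells, and Foxp3 marks regulatory T cells. NK cells lack the T cell receptor and carry receptors such as Ncr1 and Klrb1c, and they share granzymes and perforin with killer T cells. In mice, CD8 T cells accumulate in visceral fat during diet-induced obesity, while regulatory T cells, abundant in lean visceral fat, decline.

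T cell and NK cell genes differed little between the 2 arrays, and 0 of the 33 differed by 1.5-fold in either direction. Differences are log2(intensity + 1) in Oma1_KO minus the same in Oma1_WT. A mean intensity of 83 over both arrays, the median of all probe sets, was used as a filter, which 13 members passed (11 of them with both readings at 83 or more) and 20 did not. Of the 13, 9 had a lower and 4 a higher reading in Oma1_KO, with a median difference of -0.10 and a range of -0.34 to 0.27. Among all 11431 genes past the filter, 62.2% had a lower reading in Oma1_KO and the median was -0.06. In those genes 1.28% reached 1.5-fold upwards and 1.77% downwards, so 0 of 13 was close to the background. For scale, the 7531 genes with a mean intensity in the range of these 13 members had their central 95% of differences between -0.55 and 0.46.

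A second scale was the disagreement between probe sets of one gene on the same 2 RNAs. Over 545 genes past the filter with exactly 2 probe sets its SD was 0.17, and over 232 genes below the filter it was 0.19. It covers no spread between animals. Past the filter, 6 of 13 members had a difference larger than that SD, 3 of them lower (Nkg7, Cd3e and Cd2) and 3 higher (Bcl11b, Lat and Icos), against 41.1% of all genes. Below the filter 7 of 20 did, against 31.6% of all genes there. These were Eomes, Ncr1, Gzma, Klrd1 and Gata3 with lower and Ctla4 and Cd3d with higher readings.

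The 20 dim members need a background of their own. Of them 12 had a lower, 7 a higher and 1 an equal reading in Oma1_KO, with a median of -0.07, and 0 reached 1.5-fold. Over all 8507 genes below the filter the median was 0.07, 28.6% had a lower reading, with 0.976% at 1.5-fold or more upwards and 0.917% downwards. The dim members thus lay on the low side of dim genes. After quantile normalisation 13 of 20 were lower, against 36.7% of all dim genes, and after a loess correction 16 of 20, against 45.3%. Centred on the median of genes past the filter, the split was 10 lower and 10 higher, against 22.9% of all dim genes lower. These settings hardly check the position of the members, since they shift members and other dim genes alike. With quantile normalisation and loess the median of the members fell to -0.11 and -0.13, and that of all dim genes to 0.04 and 0.02. At these intensities signal could not be told from background, since no detection call was used. At an intensity of 21 against 23, as for Klrb1c, rounding alone allows any difference between -0.19 and -0.06.

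**Figure D1:**
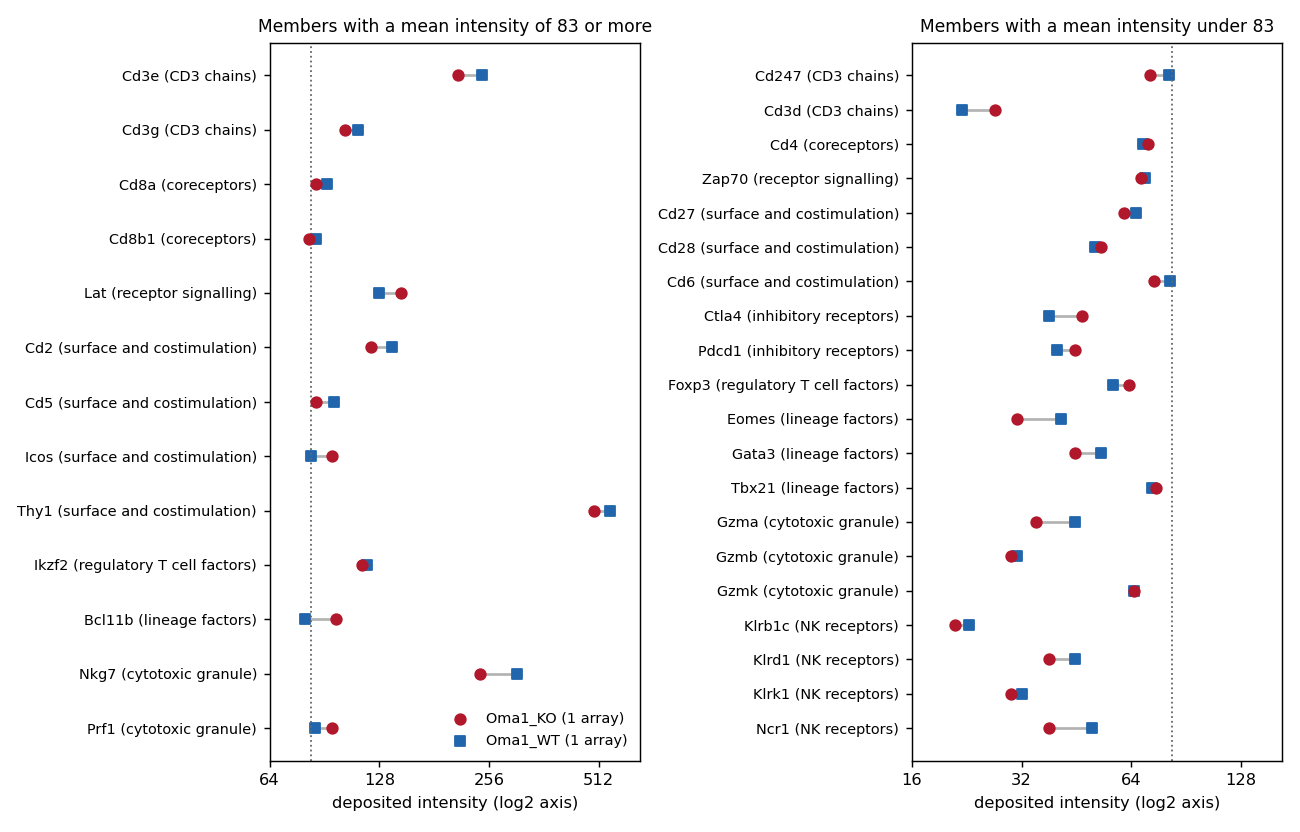
Deposited intensity of the 33 measured T cell and NK cell genes on a log2 axis, with Oma1_KO as circles and Oma1_WT as squares (1 array each, no error bars), members with a mean of 83 or more on the left and dimmer ones on the right, and the value of 83 as a dotted line. The widest gaps are those of Eomes, Ncr1 and Gzma on the right and Nkg7 on the left, all lower in Oma1_KO and all under 1.5-fold.

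Promoter windows are shown for the members with the widest differences among the cytotoxic, NK and inhibitory genes and for Cd3e, which had the lowest difference of the CD3 chains. Each is 300 bases of the GRCm38.p6 assembly around the annotated start, from RefSeq, 5′ to 3′ on the strand of the gene. Capitals mark TGTGGT (the core bound by RUNX factors), CAGGAA (one form of the core bound by ETS factors) and AGATAA (the core of GATA factors), each on either strand. On the opposite strand TGTGGT reads as ACCACA, while CAGGAA reads as TTCCTG and the core AGATAA reads as TTATCT. For Ncr1 the first of 2 overlapping windows is given.
Nkg7, chr7:43436888-43437187, plus strand: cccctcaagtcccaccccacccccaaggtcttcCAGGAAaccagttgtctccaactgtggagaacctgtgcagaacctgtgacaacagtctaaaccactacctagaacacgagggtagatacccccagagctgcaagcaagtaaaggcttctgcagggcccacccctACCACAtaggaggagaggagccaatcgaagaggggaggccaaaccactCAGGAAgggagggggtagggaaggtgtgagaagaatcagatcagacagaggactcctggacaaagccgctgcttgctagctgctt
Gzma, chr13:113100932-113101231, minus strand: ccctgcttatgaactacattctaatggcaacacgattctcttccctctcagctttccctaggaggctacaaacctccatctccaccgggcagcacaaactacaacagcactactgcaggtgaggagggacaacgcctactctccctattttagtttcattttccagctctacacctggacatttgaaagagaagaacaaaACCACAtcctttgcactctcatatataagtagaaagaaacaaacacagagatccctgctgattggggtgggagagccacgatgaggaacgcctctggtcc
Ncr1, chr7:4337465-4337764, plus strand: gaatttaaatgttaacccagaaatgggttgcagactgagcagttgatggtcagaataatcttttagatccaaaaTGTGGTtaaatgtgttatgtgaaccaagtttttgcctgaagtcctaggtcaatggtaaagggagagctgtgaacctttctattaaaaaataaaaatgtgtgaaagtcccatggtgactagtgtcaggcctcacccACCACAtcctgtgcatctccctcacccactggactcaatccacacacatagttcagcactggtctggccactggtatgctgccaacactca
Cd3e, chr9:45009562-45009861, minus strand: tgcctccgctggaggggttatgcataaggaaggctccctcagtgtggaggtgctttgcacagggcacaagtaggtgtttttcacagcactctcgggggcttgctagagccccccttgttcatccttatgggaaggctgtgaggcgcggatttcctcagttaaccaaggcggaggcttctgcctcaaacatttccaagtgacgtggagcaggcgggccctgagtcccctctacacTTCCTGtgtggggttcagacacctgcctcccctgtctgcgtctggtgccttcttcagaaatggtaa
Ctla4, chr1:60908775-60909074, plus strand: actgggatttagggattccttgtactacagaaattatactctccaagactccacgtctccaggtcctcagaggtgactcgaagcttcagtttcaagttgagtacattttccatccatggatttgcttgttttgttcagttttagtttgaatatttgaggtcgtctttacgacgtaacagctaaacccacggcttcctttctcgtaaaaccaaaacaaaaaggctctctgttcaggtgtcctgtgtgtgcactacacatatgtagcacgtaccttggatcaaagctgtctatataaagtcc

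Of the 35 listed genes, 26 had 32 such windows. Lck and Tcf7, which have no reading, are among the 26, so the shares below do not describe the 33 measured genes alone. TGTGGT was found in 11 of the 32 (34.4%), against 16.8% of all 32851 windows of that length, CAGGAA in 15 (46.9%), against 30.6%, and AGATAA in 2 (6.25%), against 11.2%. An Lck window counts among the 11 with TGTGGT, and both Lck windows count among the 15 with CAGGAA. Windows of one gene can overlap, and both overlapping windows of Ncr1 count among the 11. These shares are therefore a description without a test. Ncr1 holds the RUNX core at 2 positions, Gzma and Nkg7 at 1 each, and Nkg7 also holds CAGGAA at 2. Cd3e holds the ETS core at 1 position in its reverse complement, and in Ctla4 the count of the 3 motifs was 0. Among windows not shown, Gzmb (difference of -0.05) holds the RUNX core at 2 positions, and Prf1 (0.16) and Lat (0.20) at 1 each. Eomes, with the lowest difference of all members (-0.39), has 0 of the 3 motifs. Whether motifs go with the direction of a difference was not tested. A match of letters does not show that a factor binds there.

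Of the CD3 chains, 3 of 4 read lower in Oma1_KO, against 62.2% of all genes past the filter and 28.6% of those below it. Cd3e, the chain needed for assembly of the receptor, read 210 in Oma1_KO and 244 in Oma1_WT, a difference of -0.22. Cd3g, its gamma chain partner, read 103 in Oma1_KO and 112 in Oma1_WT (-0.12). Both passed the filter on both arrays, and 20.3% of genes past the filter had a lower difference than Cd3e, so its value was not unusual among them. Cd247, the zeta chain that carries most of the signalling motifs, lay just below the filter at 72 in Oma1_KO and 81 in Oma1_WT (-0.17). Cd3d, the delta chain, was dim, at 27 in Oma1_KO and 22 in Oma1_WT, a difference of 0.28 in the other direction. Cd3g, Cd3d and Cd3e are neighbours on chromosome 9, with 0 other protein-coding genes between them in the GRCm38.p6 gene table, and their readings did not share a direction. The median of the 4 chains was -0.14, which mixes genes past the filter with genes below it. The medians of all genes were -0.06 past the filter and 0.07 below it.

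The coreceptors were nearly equal on both arrays. Cd8a, one chain of CD8, read 86 in Oma1_KO and 92 in Oma1_WT (-0.10), and Cd8b1, the other chain, 82 in Oma1_KO and 86 in Oma1_WT (-0.07). Cd8b1, with a mean of 84, was the member closest above the filter, and Cd6, with a mean of 78, the closest below it. Cd4 read 71 in Oma1_KO and 69 in Oma1_WT (0.04), and subsets of mouse dendritic cells also carry it. All 3 differences were smaller than the SD between a gene's probe sets.

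In receptor signalling, Lat read 147 in Oma1_KO and 128 in Oma1_WT, a difference of 0.20. Lat is also expressed by mast cells, and most mast cell markers read higher in Oma1_KO as given below; their part in this value was not tested. Zap70, the kinase recruited by phosphorylated CD3 tails, read 68 in Oma1_KO and 70 in Oma1_WT (-0.04), below the filter.

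Surface receptors of T cells were split in direction, with 5 of 7 lower and 2 higher (Cd28 and Icos, given below). Cd2, an adhesion receptor of T and NK cells, read 121 in Oma1_KO and 139 in Oma1_WT (-0.20). Cd5, which dampens receptor signalling, read 86 in Oma1_KO and 96 in Oma1_WT (-0.16), and its neighbour Cd6, a related scavenger receptor family protein, 74 in Oma1_KO and 82 in Oma1_WT (-0.15). Thy1, carried by T cells and also by stromal cells of fat, read 498 in Oma1_KO and 548 in Oma1_WT (-0.14). The differences of these 4 genes lay between -0.20 and -0.14. Past the filter 62.2% of all genes read lower, and 22.75%, 29.73% and 33.44% had a lower difference than Cd2, Cd5 and Thy1. Cd27, a costimulatory receptor of the TNF receptor family, read 61 in Oma1_KO and 66 in Oma1_WT (-0.11), and was dim.

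Cd28, Ctla4 and Icos, costimulatory and inhibitory receptors, lie next to each other on chromosome 1. Icos, the inducible costimulator of activated and regulatory T cells, passed the filter with 95 in Oma1_KO and 83 in Oma1_WT (0.19). Ctla4, which competes with Cd28 for its ligands and is abundant in regulatory T cells, read 47 in Oma1_KO and 38 in Oma1_WT, a difference of 0.30, the highest among the 33 members, and below the filter. Cd28, the main costimulatory receptor, read 53 in Oma1_KO and 51 in Oma1_WT (0.05), which was -0.01 after the loess correction. Pdcd1, the inhibitory receptor PD-1, read 45 in Oma1_KO and 40 in Oma1_WT (0.17). With 3 of these 4 genes below the filter, the sizes are uncertain. The median over all dim genes was itself above 0, at 0.07, and Cd28 lay below it, while 88.95% of dim genes had a difference below that of Ctla4.

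Factors of regulatory T cells showed no common direction. Foxp3, the factor that defines these cells, was dim, at 63 in Oma1_KO and 57 in Oma1_WT (0.14). Ikzf2, the Helios factor, passed the filter with 115 in Oma1_KO and 118 in Oma1_WT (-0.04). Of 11 other measured genes listed for regulatory T cells in fat, 5 passed the filter and all 5 had lower readings, against 62.2% of all genes past it, with a median of -0.20 and 0 at 1.5-fold. One of them, Tnfrsf18, passed through Oma1_WT only. The 6 below the filter were 3 lower and 3 higher, with a median of -0.02. Of all dim genes 28.6% were lower, with a median of 0.07. The median of all 11 was -0.14. Il2ra, the alpha chain of the interleukin-2 receptor, was among them at 85 in Oma1_KO and 126 in Oma1_WT (-0.56). Prdm1, a factor of effector regulatory cells, read 113 in Oma1_KO and 135 in Oma1_WT (-0.25). Batf, a factor of activated T cells, and Gpr83, a receptor abundant in regulatory T cells, were dim. Both were higher in Oma1_KO like Foxp3 and Ctla4, with differences of 0.32 and 0.14. Ikzf4, the other dim gene of the list with a higher reading, differed by 0.03. Of dim genes 65.6% had a difference below that of Foxp3, which Gpr83 shared, so a value of 0.14 was not unusual there. The 3 dim genes with lower readings were Klrg1 (-0.43, the largest size among the 6), Il10 (-0.11) and Tnfrsf4 (-0.06). Other cells of fat also express some genes of this list.

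Lineage factors differed among themselves. Bcl11b, required for T cell identity, read 97 in Oma1_KO and 80 in Oma1_WT, the highest difference past the filter at 0.27, with 93.2% of genes there below it. Its reading in Oma1_WT was under 83, so it passed through the Oma1_KO array. Eomes, a factor of NK cells and memory killer T cells, read 31 in Oma1_KO and 41 in Oma1_WT, a difference of -0.39, the lowest of the 33, with 2.29% of dim genes lower still. Tbx21, the T-bet factor that shares targets with Eomes, read 75 in Oma1_KO and 73 in Oma1_WT (0.04, and -0.01 after the loess correction). Gata3, the factor of type 2 helper cells and innate lymphoid cells, read 45 in Oma1_KO and 53 in Oma1_WT (-0.23).

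The 5 cytotoxic and 4 NK receptor genes held 4 of the 5 lowest differences among the 33 members, the other being that of Eomes. Of these 5 lowest, only Nkg7 was past the filter. The remaining cytotoxic and NK receptor genes lay between -0.13 and 0.16. Nkg7, a granule membrane protein of NK and killer T cells, passed the filter with 241 in Oma1_KO and 305 in Oma1_WT, a difference of -0.34, and 8.74% of genes past the filter were lower. Its window is shown above with the RUNX and ETS cores. Gzma, the granule protease granzyme A, read 35 in Oma1_KO and 45 in Oma1_WT (-0.35), with 2.83% of dim genes lower. Gzmk, its neighbour on chromosome 13, was equal at 65 on both arrays, and Gzmb, granzyme B, read 30 in Oma1_KO and 31 in Oma1_WT (-0.05). Prf1, the pore-forming perforin, went the other way at 95 in Oma1_KO and 85 in Oma1_WT (0.16). The granule genes thus did not move as 1 group.

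All 4 NK receptor genes had lower readings in Oma1_KO, and all 4 were below the filter. Ncr1, the activating receptor NKp46, read 38 in Oma1_KO and 50 in Oma1_WT (-0.39), with 2.36% of dim genes lower. Klrd1, the CD94 chain that pairs with NKG2 receptors, read 38 in Oma1_KO and 45 in Oma1_WT (-0.24). Klrk1, the activating receptor NKG2D, read 30 in Oma1_KO and 32 in Oma1_WT (-0.09), and Klrb1c, the NK1.1 antigen of some mouse strains, 21 in Oma1_KO and 23 in Oma1_WT (-0.13). Of all dim genes 28.6% had a lower reading. The median of the 4 was -0.18, against 0.07 for all dim genes. The count of 4 lower held after quantile normalisation, after loess, after centring and with a pseudocount of 16. These settings hardly check the count. A pseudocount cannot change a sign, and quantile normalisation and loess moved all 4 further down. Centring adds less than the smallest of the 4 sizes. Klr genes and granzymes have close relatives in the genome, so cross-hybridisation between relatives cannot be told from their own signal. In a bulk sample, fewer cells of a type and less RNA per cell cannot be told apart.

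**Figure D2:**
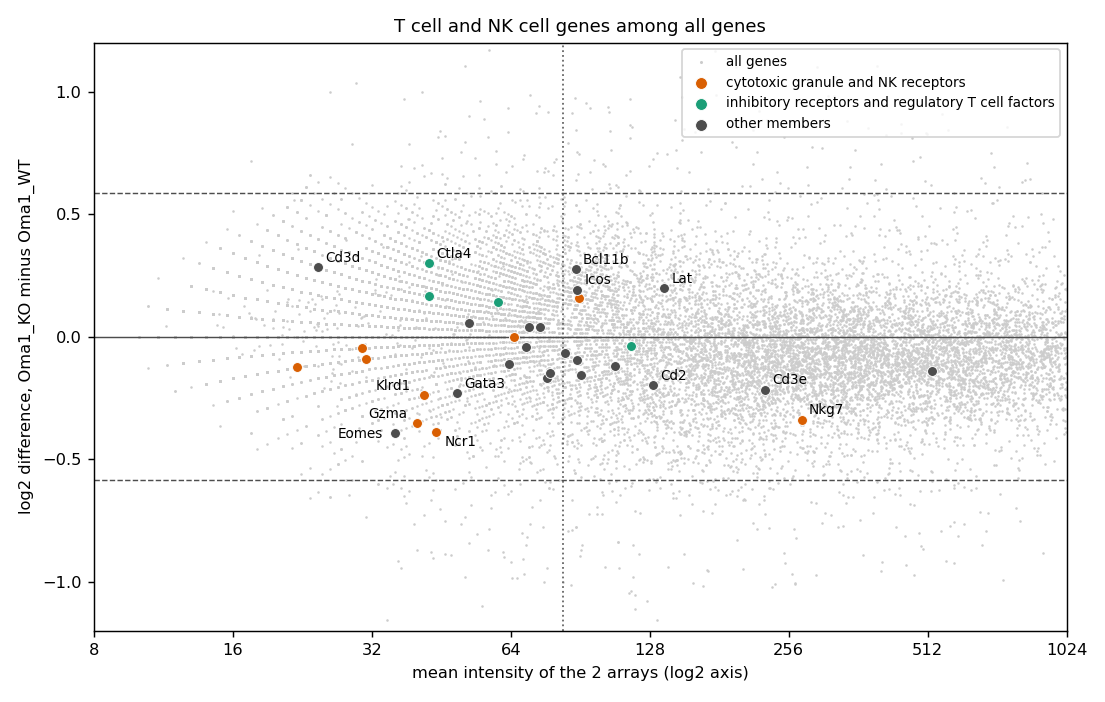
Log2 difference (Oma1_KO minus Oma1_WT, 1 array each) against the mean intensity of both arrays on a log2 axis, for all genes within the plotted range as small dots and for the 33 members as large dots coloured by role. Dashed lines mark 1.5-fold and the dotted line an intensity of 83, and the members lie inside the dashed lines, with Eomes, Ncr1, Gzma and Nkg7 lowest and Ctla4, Cd3d and Bcl11b highest.

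Beyond the members, 8 further lists of T and NK cell genes gave 146 measured genes, each counted once, of which 67 passed the filter. Of the 67, 30 had lower, 35 higher and 2 equal readings, with a median of 0.03, and 1.5-fold was reached by 2 downwards and by 1 upwards. Over all genes past the filter 62.2% were lower, with 1.77% at 1.5-fold downwards and 1.28% upwards, so 3 of 67 was close to the background. Of the 67, 6 passed through 1 array only, 3 through Oma1_KO and 3 through Oma1_WT. Zbtb16, a factor of NKT and innate lymphoid cells that stromal and fat cells express too, read 639 in Oma1_KO and 1178 in Oma1_WT (-0.88). Satb1, a chromatin organiser of thymocytes, read 62 in Oma1_KO and 108 in Oma1_WT (-0.79), and passed the filter through Oma1_WT. Trbv1, a variable segment of the T cell receptor beta chain, read 151 in Oma1_KO and 83 in Oma1_WT (0.86). Of the other 8 receptor segments, all below the filter, 3 were lower, 3 higher and 2 equal, and Trav13-5 read 81 in Oma1_KO and 53 in Oma1_WT (0.60). Variable segments resemble each other, so their identity is uncertain.

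Of 20 other NK receptor and adaptor genes measured, 16 were below the filter, and 8 of these had lower, 6 higher and 2 equal readings. Their median was -0.03, against 0.07 for all dim genes, of which 28.6% were lower, so these 16 also lay on the low side of dim genes. Klrb1a, a relative of Klrb1c, was the only one of the 16 past 1.5-fold, at 19 in Oma1_KO and 30 in Oma1_WT (-0.63). Klrg1, an inhibitory receptor of NK cells and effector T cells, differed by -0.43 and Klrb1f, another relative of Klrb1c, by -0.39. Of the 6 with higher readings, Klri1 differed most, by 0.38, a size close to that of Klrb1f. The 4 past the filter had higher readings, against 62.2% of all genes past it with a lower one. They were Sh2d1b1 (0.18), Itga2, which passed through Oma1_KO only, and the adaptors Tyrobp (4311 in Oma1_KO and 3866 in Oma1_WT, 0.16) and Fcer1g (3627 in Oma1_KO and 3555 in Oma1_WT, 0.03), which macrophages and mast cells also use. Over all 79 further genes below the filter, 37 were lower, 34 higher and 8 equal, against the 28.6% of dim genes with a lower reading.

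By role, the 18 bright genes of receptor signalling outside the members had a median of 0.02 (7 lower, 9 higher, 2 equal), with Ptpn22, a phosphatase that restrains it, at 97 in Oma1_KO and 128 in Oma1_WT (-0.40). Past the filter, the 11 cytokine and homing receptors had a median of -0.04 (6 lower, 5 higher), with S1pr1, the receptor for exit from lymphoid organs that endothelium also carries, at 624 in Oma1_KO and 854 in Oma1_WT (-0.45). The 7 checkpoint and costimulatory genes had a median of 0.15 (1 lower, 6 higher), led by Ly9, a SLAM family receptor, at 495 in Oma1_KO and 407 in Oma1_WT (0.28). Of these 7, Tnfrsf9 passed through Oma1_KO only and Tnfrsf18 through Oma1_WT only. The 11 dim genes of that list went the other way, with 7 lower, 3 higher and 1 equal and a median of -0.08. Of all dim genes 28.6% were lower. Over all 18 genes of the list the median was 0.03. The 18 lineage factors past the filter had a median of -0.04 (10 lower, 8 higher). After quantile normalisation, loess or centring that median was 0.02. The 5 effectors past it had a median of -0.13 (3 lower, 2 higher), which was -0.03 over all 24 measured, with Tnfsf10, the death ligand TRAIL, at 275 in Oma1_KO and 411 in Oma1_WT (-0.58). In these lists 0 genes other than Zbtb16 and Satb1 reached 1.5-fold past the filter. The background for their counts past the filter was 62.2% of all genes there with a lower reading.

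**Figure D3:**
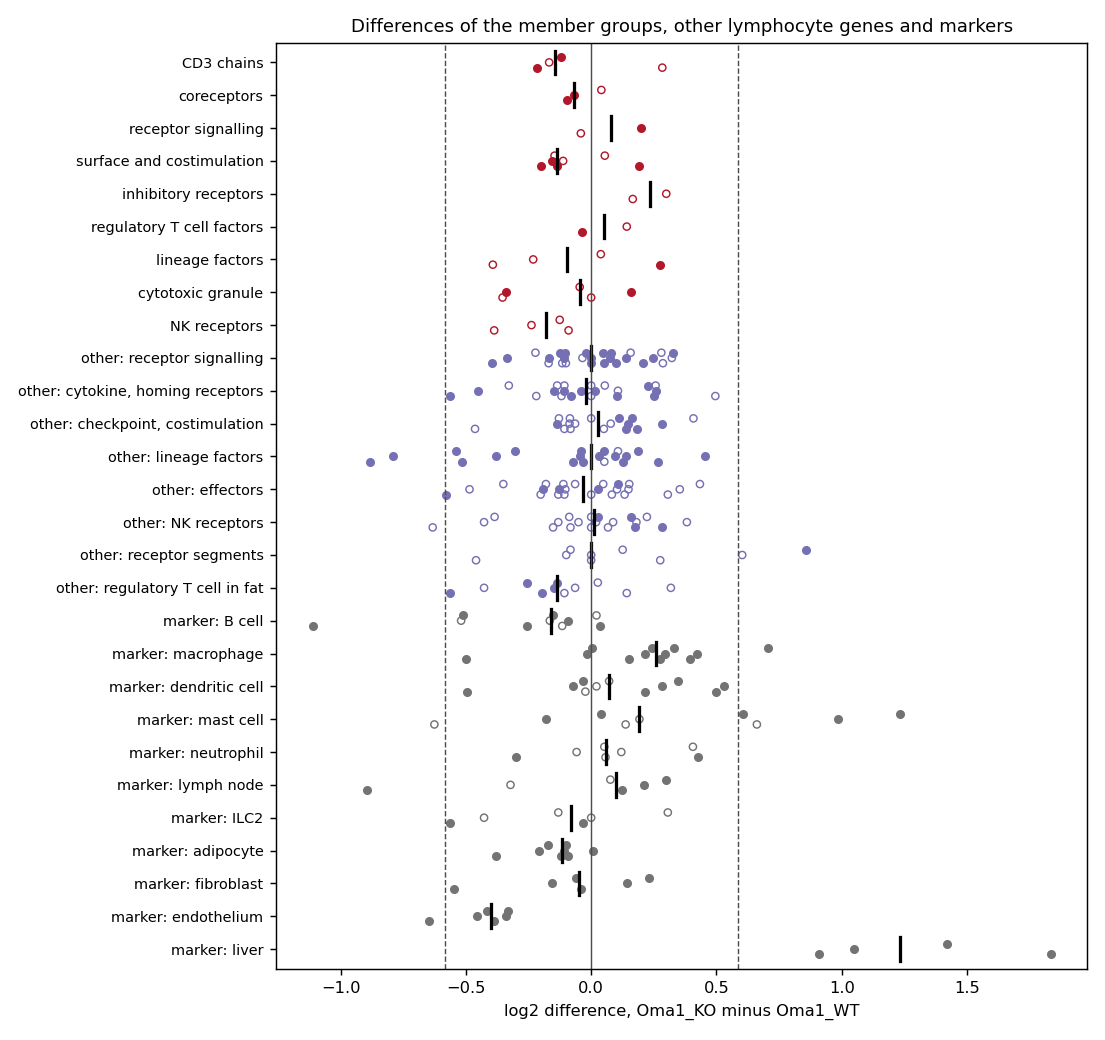
Log2 differences (Oma1_KO minus Oma1_WT, 1 array each) of the member groups in red, of further T and NK cell lists in purple and of markers of other cells in grey, filled where the mean intensity is 83 or more and open where it is lower. Black bars are medians over all measured genes of a list and dashed lines mark 1.5-fold; the members stay between -0.39 and 0.30, while liver and mast cell markers extend beyond 1.

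Several marker lists of other cells had wider differences than the T and NK cell genes. The summed intensity of the 33 members was 2965 in Oma1_KO and 3150 in Oma1_WT. Of 12 macrophage markers 10 were higher (median 0.26), with a sum of 39346 in Oma1_KO and 33698 in Oma1_WT. Mast cell markers past the filter were higher in 4 of 5 (median 0.61), with a sum of 1692 in Oma1_KO and 1016 in Oma1_WT. Over all 9 measured mast cell markers, 7 higher and 2 lower, the median was 0.19, with the tryptase gene Tpsab1 at -0.63. Of 8 dendritic cell markers past the filter 5 were higher (median 0.25), summing to 21420 in Oma1_KO and 16667 in Oma1_WT, and over all 11 measured the median was 0.07. Of these cells, mast cells express Lat.

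B cell markers were lower in 5 of 6 past the filter (median -0.20), against 62.2% of all genes past it, with a sum of 2193 in Oma1_KO and 2421 in Oma1_WT. Of these 5, Cd79a (75 in Oma1_KO and 163 in Oma1_WT) and Pax5 (76 in Oma1_KO and 91 in Oma1_WT) passed through Oma1_WT only, and over all 10 measured 8 were lower, with a median of -0.16. Endothelial markers were lower in 6 of 6 (median -0.40), with 5670 in Oma1_KO and 7411 in Oma1_WT. Of the lymph node markers past the filter 3 of 4 were higher, with a median of 0.17 and a mean of -0.065, and Chst4, an enzyme of high endothelial venules, read 63 in Oma1_KO and 118 in Oma1_WT (-0.89) and passed through Oma1_WT only. All 4 liver markers were higher (median 1.23), with a sum of 6859 in Oma1_KO and 2671 in Oma1_WT. For the genes of these lists past the filter, the lowest deposited reading in Oma1_KO was 63 and in Oma1_WT 78. The filter on the mean largely keeps out readings near the lowest value of 8, so this is no separate check. Without a detection call it does not show signal above background either. What part any of these cells had in the readings of the T and NK cell genes was not tested. Neutrophil (2 past the filter, median 0.06), fibroblast (6, -0.05), adipocyte (8, -0.12) and type 2 innate lymphoid (2, -0.30, and -0.08 over all 6 measured) markers completed the set.

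**Figure D4:**
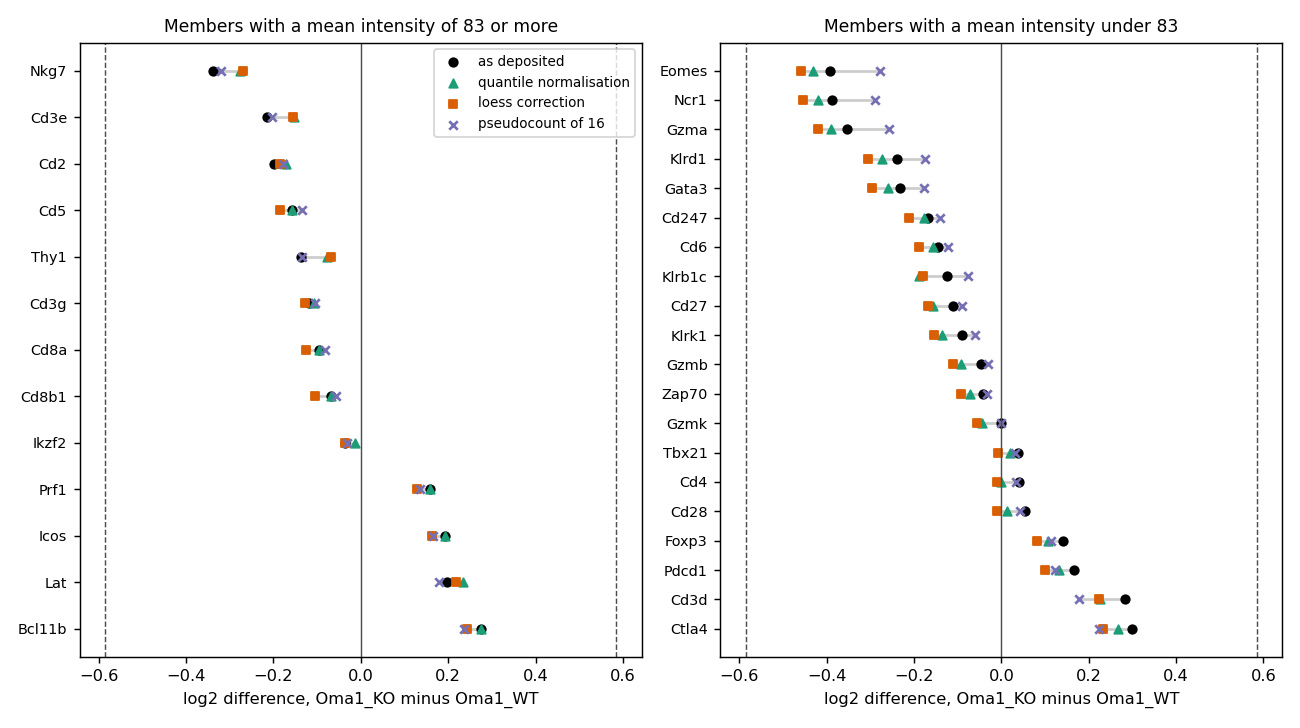
Log2 difference (Oma1_KO minus Oma1_WT, 1 array each) of each of the 33 members as deposited, after quantile normalisation, after a loess correction and with a pseudocount of 16, with dashed lines at 1.5-fold. Every member stays inside 1.5-fold under the 4 settings, and Cd4, Cd28 and Tbx21, all dim, lie on the other side of 0 after loess.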

How the data were processed

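Per the labels, Trizol was used to isolate total RNA, which was marked with biotin and put on 1 Affymetrix Mouse Gene 1.0 ST array per group. The deposited values are linear intensities of 35512 probe sets, in whole numbers from 8 upwards. How background, probe summary and scaling were handled is not given in the sources used here, although both medians are 83. Rounding is coarse for dim genes, and only 2 arrays limit the precision of every value.

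Of the probe sets, 21789 had 1 gene symbol in GEO's platform annotation, 1621 several and 12102 none; the first kind was used, averaged per gene after log2(intensity + 1). The pseudocount understates changes of dim genes. No further scaling was applied. A gene passed the filter at a mean intensity of 83 or more. With 1 array per group no test was possible, and the fixed size was 1.5-fold. The members and lists were chosen with earlier results of these data known. All members were named, and from each other list up to 4 genes past the filter with the largest difference were eligible. Klrb1a, Klrb1f, Klrg1, Klri1, Batf, Gpr83, Ikzf4, Il10, Tnfrsf4, Tpsab1, Tnfrsf9, Tnfrsf18 and Trav13-5 were named after their values were seen. Counting and scaling steps were tested on simulated data. Python 3.11.15, numpy 2.4.6, pandas 2.3.3, statsmodels 0.14.6 and matplotlib 3.10.9 were used.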

Additional observations from a re-analysis of the deposited data

How the results depend on the processing

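No paired analysis was possible because each group had 1 array, and for the same reason none could be left out. The alternatives were quantile normalisation, loess, centring, a pseudocount of 16, the brightest probe set, probe sets with several symbols, and other filters. Under all of them 0 members reached 1.5-fold, although the other filters change no member's difference. The brightest probe set and the probe sets with several symbols changed 0 values, since each member has 1 probe set. The median of the members past the filter, -0.10, was -0.0359 after centring, and that of all 33, -0.09, was -0.0299, with the same sign. The split of 9 lower and 4 higher became 21 and 11 with no filter, and 1 and 0 when the filter was raised to the upper quartile, which left Thy1 alone. In 198 values no member's difference moved by more than the SD between a gene's probe sets. Many of these values could not have done so. The brightest probe set and the probe sets with several symbols left them unchanged. Centring shifted all members by the same amount, the median of -0.06, which is smaller than that SD. Of 6 changes of sign, 3 came with loess (Cd4, Cd28 and Tbx21) and 3 with centring (Zap70, Ikzf2 and Gzmb), all of values within 0.06 of 0. Of 152 medians of other lists, 18 moved by more than that SD divided by the square root of the number of genes, 8 of them with no filter, as for checkpoint genes (0.0253), mast cell markers (0.1926) and dendritic cell markers (0.0716). Some medians near 0 changed sign, as for lineage factors. After centring, that of cytokine and homing receptors went from -0.04 to 0.02 and that of fibroblast markers from -0.05 to 0.01. The dimness of 20 of 33 members limits what these arrays can show of them.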
